A study of Mus musculus with 18 samples.

Results

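The genes described here are 36 members of the integrated stress response and the unfolded protein response, chosen by name from the rows of a count table of bulk RNA sequencing of cultured mouse microglia. Each was matched by its Ensembl identifier, and all 36 were found among the 50686 identifiers of the table and passed the filter on low counts that 13447 genes passed. They were divided by role into an ATF4 arm of 18 genes and an endoplasmic reticulum (ER) arm of 18 genes, of which 11 were ER chaperones and folding enzymes. Cells under stress phosphorylate the initiation factor eIF2, which lowers general translation while raising translation of the transcription factor ATF4, and ATF4 then switches on genes of amino acid supply, redox balance and cell fate. Misfolded protein in the ER activates 3 sensors, PERK, IRE1 and ATF6. PERK acts through eIF2 and ATF4, whereas IRE1 (through XBP1) and ATF6 switch on ER chaperones and degradation factors, so that the arms can move together or apart. Other eIF2 kinases answer to amino acid shortage, heme shortage and double-stranded RNA and reach ATF4 without the ER sensors.

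The cells were primary microglia, the resident macrophages of the brain, grown from forebrains of C57BL/6 pups of postnatal day 2. They were taken from mixed cultures by shaking. There were 18 libraries, 3 for each of 6 genotypes. These were wild type (WT), Tbk1+/- (1 intact allele of the kinase gene Tbk1), Tak1ΔM/+ (1 altered allele of the kinase gene Tak1, also called Map3k7), the compound heterozygote Tbk1+/-;Tak1ΔM/+, and both genotypes that add an allele of Ripk1 encoding a kinase-dead protein, Tbk1+/-;Tak1ΔM/+;Ripk1D138N/+ and Tbk1+/-;Ripk1D138N/D138N. No treatment of the cells is named in the labels, which also do not say which cells carry the ΔM allele or which part of the gene it lacks. The labels do not give the animal or culture behind each library, so each p-value below measures only the spread between libraries, which may be technical.

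Library totals ran from 8016559 to 22989116 counts. The summed level of 14 microglial markers was 9860 to 12300 CPM (read counts scaled to a common library size) over the 18 libraries, although Tmem119 and P2ry12, which mark microglia in the brain, reached no more than 6.56 and 17.4 CPM. The summed markers of astrocytes, the oligodendrocyte lineage and neurons reached at most 65.2, 90.5 and 16.7 CPM, and those of other blood cells 0.747 CPM. Tbk1 itself stood at 104 to 149 CPM in WT, 50.5 to 65.6 in Tbk1+/- and 55.1 to 66.0 in the compound heterozygote. It stood at 107 to 123 CPM in the 3 libraries labelled Tbk1+/-;Tak1ΔM/+;Ripk1D138N/+ and at 130, 54.9 and 131 CPM in those labelled Tbk1+/-;Ripk1D138N/D138N, so 5 libraries labelled Tbk1+/- had a Tbk1 level in the WT range. Map3k7 stood at 10.4 to 19.2 CPM in WT and 7.34 to 9.98 in Tak1ΔM/+. In the compound heterozygote it stood at 6.57 to 15.8 CPM and overlapped with WT. Ripk1 stood at 17 to 23.8 CPM in WT and at 49 to 71 in the compound heterozygote, without overlap. The share of counts on mitochondrially encoded genes was under 0.7% in 8 libraries: the 3 of the compound heterozygote, replicate 3 of WT, replicate 1 of Tak1ΔM/+, replicates 1 and 3 labelled Tbk1+/-;Ripk1D138N/D138N and replicate 1 labelled Tbk1+/-;Tak1ΔM/+;Ripk1D138N/+. In the other libraries it ran from 1.051% to 2.2%.

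The letters before the start sites are described here for both arms, and short stretches are shown for members whose expression is followed below. RefSeq promoter windows (GRCm38.p6, the 250 bases before the annotated start site) were found for 34 of the 36 members. The gene positions given further below come from another annotation, GENCODE M21, whose outer bounds can differ from these start sites. The printed matches of Hspa5, Atf3, Asns and Nupr1 lie inside the GENCODE bounds of their genes. The table holds 32851 windows of 27025 genes, and a gene was counted where any of its windows held the letters. The ER stress element, CCAAT and CCACG with any 9 bases between them, to which ATF6 binds together with NF-Y, was searched on both strands and was present for 7 of 10 chaperone genes with a window and for none of the 18 genes of the ATF4 arm, beside 0.13% of all genes with a window. The core of the amino acid response element, TGATGNAA, which ATF4 binds with a partner, was present for 5 of the 18 genes of the ATF4 arm and for none of the 10 chaperone genes, beside 3.91% of all genes with a window. Herpud1, which encodes an ER membrane protein of protein degradation, held both the amino acid response core and the ER stress element II, ATTGG and CCACG with any 1 base between them, which 0.037% of all genes with a window hold. The unfolded protein response element TGACGTGG, bound by XBP1, was present for no member and for 0.603% of all genes with a window. Each line below gives the gene, its position, its strand and the sequence 5′ to 3′ on the gene's own strand, with the matched letters in capitals. A match on the other strand reads as the reverse complement.
Hspa5, ER stress element, chr2:34772020-34772048, plus strand: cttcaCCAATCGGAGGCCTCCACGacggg
Hsp90b1, first ER stress element, chr10:86705633-86705661, minus strand: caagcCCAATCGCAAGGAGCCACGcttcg
Hsp90b1, second ER stress element, chr10:86705528-86705556, minus strand: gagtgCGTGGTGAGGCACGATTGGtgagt
Calr, ER stress element, chr8:84847070-84847098, minus strand: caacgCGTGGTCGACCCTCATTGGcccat
Canx, ER stress element, chr11:50325795-50325823, minus strand: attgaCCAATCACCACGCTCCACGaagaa
Herpud1, ER stress element II, chr8:94386372-94386392, plus strand: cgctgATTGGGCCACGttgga
Herpud1, amino acid response core, chr8:94386312-94386329, plus strand: gcgggTTGCATCAgcccg
Asns, amino acid response core, chr6:7693220-7693237, minus strand: ccacaTGATGAAActtcc
Atf3, amino acid response core, chr1:191183431-191183448, minus strand: cgcacTTGCATCAccaag
Chac1, amino acid response core, chr2:119351044-119351061, plus strand: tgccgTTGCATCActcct
Nupr1, amino acid response core, chr7:126625568-126625585, minus strand: ccagaTTGCATCAgacag
Hsp90b1 was the member with 2 matches to the ER stress element. In the printed stretches of Atf3, Chac1, Nupr1 and Herpud1 the matched letters were identical. The windows of Atf4, Ddit3 and Trib3 held none of the letters searched. Because the members were chosen by name for their known roles, the shares cannot test whether the arms differ. A match is a description of the letters, and none of these windows was tested for binding here.

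In WT, the highest levels per kilobase of exon were those of Atf3 (152 mean CPM per kb), Hspa5 (133), Canx (124), Calr (121) and Hsp90b1 (104). At the other end stood Chac1 (0.309 mean CPM per kb) and Vldlr (0.0252). Chac1 had 0 to 124 reads in a library, Ddit4 0 to 32 and Vldlr 0 to 46, so these 3 genes could show large differences only. A level per kilobase is not comparable with the CPM values below, which are not divided by length. Across the 6 genotypes, 7 of the 36 members differed by edgeR's quasi-likelihood test with Benjamini-Hochberg adjustment over all 13447 genes, beside 7.18% of all genes: Ddit3 (adjusted p = 0.00225), Dnajb9 (0.00346), Canx (0.00833), Hsp90b1 (0.0149), Trib3 (0.0223), Atf3 (0.0381) and Gdf15 (0.0388). Leaving out any 1 compound heterozygote library ended the overall call of Trib3, Atf3, Gdf15 and Hsp90b1, while Ddit3, Dnajb9 and Canx were called without any 1 of the 18 libraries. Of the 18 fits with 1 library left out, Trib3 and Hsp90b1 were each called in 15, but Atf3 in 6 and Gdf15 in 7. None of the 6 genes of amino acid and one-carbon synthesis and none of the 4 genes of the sensors and XBP1 was among them. In all, 11 members were called in this test or in at least 1 comparison of genotypes, and 25 were called in none, while 16.9% of all genes were called in at least 1 of them.

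**Figure D1:**
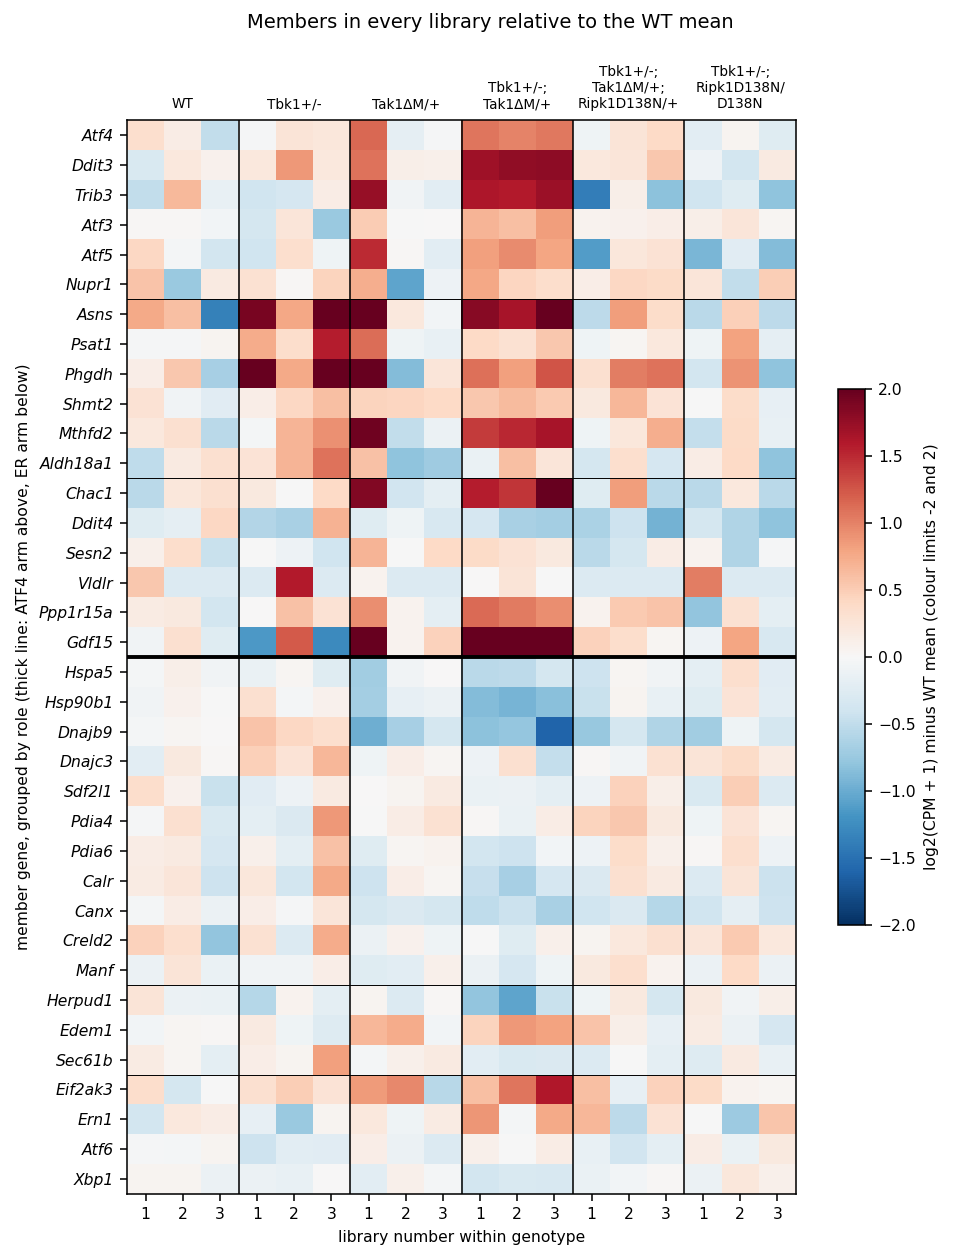
Heat map of the 36 members (rows, ordered by role, ATF4 arm above the thick line and ER arm below it) in the 18 libraries (columns, 3 per genotype), with colour for log2(CPM + 1) minus the WT mean of that gene, capped at -2 and 2. The compound heterozygote and replicate 1 of Tak1ΔM/+ are the columns in which most genes above the thick line are red and most chaperones are blue.

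In the compound heterozygote, genes of the ATF4 arm stood above WT while ER chaperones stood below it. On log2(CPM + 1) relative to the WT mean, the 18 genes of the ATF4 arm averaged 0.94, 0.92 and 1.01 in its 3 libraries, and the 11 chaperones averaged -0.36, -0.39 and -0.39. The difference between the arms per library was 1.29, 1.31 and 1.40 (mean 1.33 ± 0.06, SD, n = 3), beside 0 ± 0.04 (SD, n = 3) in WT. The 3 libraries lay close together and apart from those of WT in both arms. In Tbk1+/-, the difference was 0.01, 0.48 and 0.12, and in the libraries labelled Tbk1+/-;Tak1ΔM/+;Ripk1D138N/+ it was -0.05, 0.14 and 0.13. In those labelled Tbk1+/-;Ripk1D138N/D138N it was -0.02, -0.16 and -0.17. The 3 libraries of Tak1ΔM/+ did not lie together: replicate 1 was at 1.51, above every library of the compound heterozygote, and replicates 2 and 3 were at -0.11 and -0.04.

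**Figure D2:**
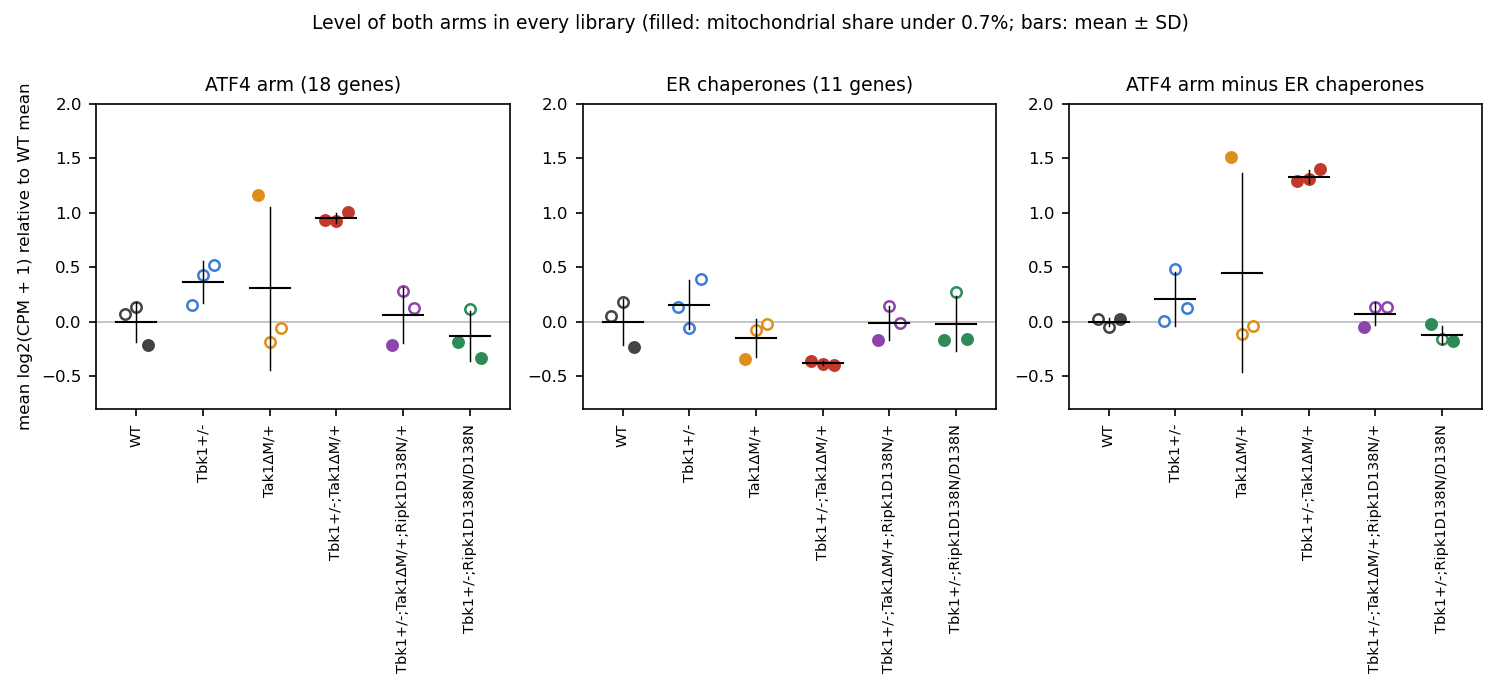
Mean log2(CPM + 1) relative to the WT mean for the ATF4 arm, for the ER chaperones and for their difference, 1 point per library and 6 genotypes on the x axis, with horizontal bars for the mean, vertical bars for ± SD and filled points for libraries with a mitochondrial share under 0.7%. The compound heterozygote sits at 1.29 to 1.40 in the right panel, replicate 1 of Tak1ΔM/+ sits at 1.51, and the other 14 libraries sit between -0.17 and 0.48.

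Against WT, 8 members were called in the compound heterozygote, 4 higher and 4 lower, beside 6.07% of all genes (2.16% higher and 3.9% lower). All 4 that rose belonged to the ATF4 arm (Ddit3, Atf4, Atf3 and Gdf15) and all 4 that fell to the ER arm (Hsp90b1, Dnajb9, Canx and Herpud1). Of the ATF4 arm, 17 of 18 genes had a log2 fold change above 0, with a median of 0.94, and in 13 the 3 libraries lay above all 3 of WT, which was true of 15.2% of all genes. All 11 chaperones had a value below 0, with a median of -0.29, and in 4 of them the libraries lay below WT without overlap, as in 14.4% of all genes. The median of all genes tested was 0.00. In bulk RNA, a change in the number of cells of a type and a change in RNA per cell cannot be told apart.

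Among the transcription factors and regulators, 3 of 6 rose. Ddit3 (chr10:127290774-127296288, GRCm38, plus strand), which encodes CHOP, a factor that can drive cell death under lasting stress, stood at 8.93, 13.3 and 12.1 CPM in WT and at 38.9, 40.9 and 41.7 CPM in the compound heterozygote. It stood at 13.3, 21.4 and 13.2 CPM in Tbk1+/-, at 25.2, 12.3 and 12.2 in Tak1ΔM/+, at 13.2, 13.5 and 16.9 in those labelled Tbk1+/-;Tak1ΔM/+;Ripk1D138N/+ and at 10.5, 8.53 and 13.0 in those labelled Tbk1+/-;Ripk1D138N/D138N. The 3 compound heterozygote libraries were the highest of the 18, and Tak1ΔM/+ replicate 1 was next. Against WT it rose by a log2 fold change of 1.82 ± 0.28 (SE), with an adjusted p of 0.00171 (edgeR). Ddit3 shares 68 of 1713 exon bases with Mars on the other strand, and the reads carry no strand.

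Atf4 (chr15:80255184-80257541, plus strand), the factor that gives the arm its name, stood at 129, 113 and 71.6 CPM in WT and at 214, 202 and 213 CPM in the compound heterozygote. It stood at 99.9, 121 and 119 CPM in Tbk1+/-, 226, 89.4 and 99.5 in Tak1ΔM/+, 95.6, 121 and 134 in those labelled Tbk1+/-;Tak1ΔM/+;Ripk1D138N/+ and 87.1, 106 and 86.1 in those labelled Tbk1+/-;Ripk1D138N/D138N. Only Tak1ΔM/+ replicate 1 reached the range of the compound heterozygote or passed it. Atf4 rose by a log2 fold change of 1.00 ± 0.27 (SE; adjusted p = 0.0367, edgeR). These are levels of messenger RNA, and the translation of Atf4 was not measured.

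Atf3 (chr1:191170296-191218039, minus strand), a stress-induced factor that binds many ATF4 target genes, stood at 332, 334 and 315 CPM in WT and at 525, 494 and 585 CPM in the compound heterozygote. It stood at 256, 386 and 196 CPM in Tbk1+/-, 467, 325 and 329 in Tak1ΔM/+, 343, 346 and 360 in those labelled Tbk1+/-;Tak1ΔM/+;Ripk1D138N/+ and 355, 386 and 336 in those labelled Tbk1+/-;Ripk1D138N/D138N. The compound heterozygote was again above all other libraries, with Tak1ΔM/+ replicate 1 between it and the rest. Atf3 rose by a log2 fold change of 0.71 ± 0.19 (SE; adjusted p = 0.0312, edgeR).

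Trib3 (chr2:152337422-152344032, minus strand) encodes a pseudokinase that is induced by ATF4 and CHOP and restrains them. It stood at 3.80, 9.66 and 5.11 CPM in WT and at 19.8, 19.3 and 21.1 CPM in the compound heterozygote. It stood at 4.15, 4.40 and 6.50 CPM in Tbk1+/-, 21.6, 5.45 and 4.87 in Tak1ΔM/+, 1.60, 6.36 and 2.85 in those labelled Tbk1+/-;Tak1ΔM/+;Ripk1D138N/+ and 4.13, 4.72 and 2.90 in those labelled Tbk1+/-;Ripk1D138N/D138N. The compound heterozygote did not overlap with WT, but WT itself was spread widely and the difference was not called (log2 fold change 1.69 ± 0.54 SE, adjusted p = 0.0688, edgeR). Atf5, a related factor induced with ATF4, was at 8.01 to 14.6 CPM in WT and 19.1 to 21.4 in the compound heterozygote, and Nupr1, a small stress-induced nuclear protein, at 2.36 to 7.34 and 6.17 to 8.59. Neither was called. Atf5 shares 82 exon bases with Nup62 on the other strand.

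**Figure D3:**
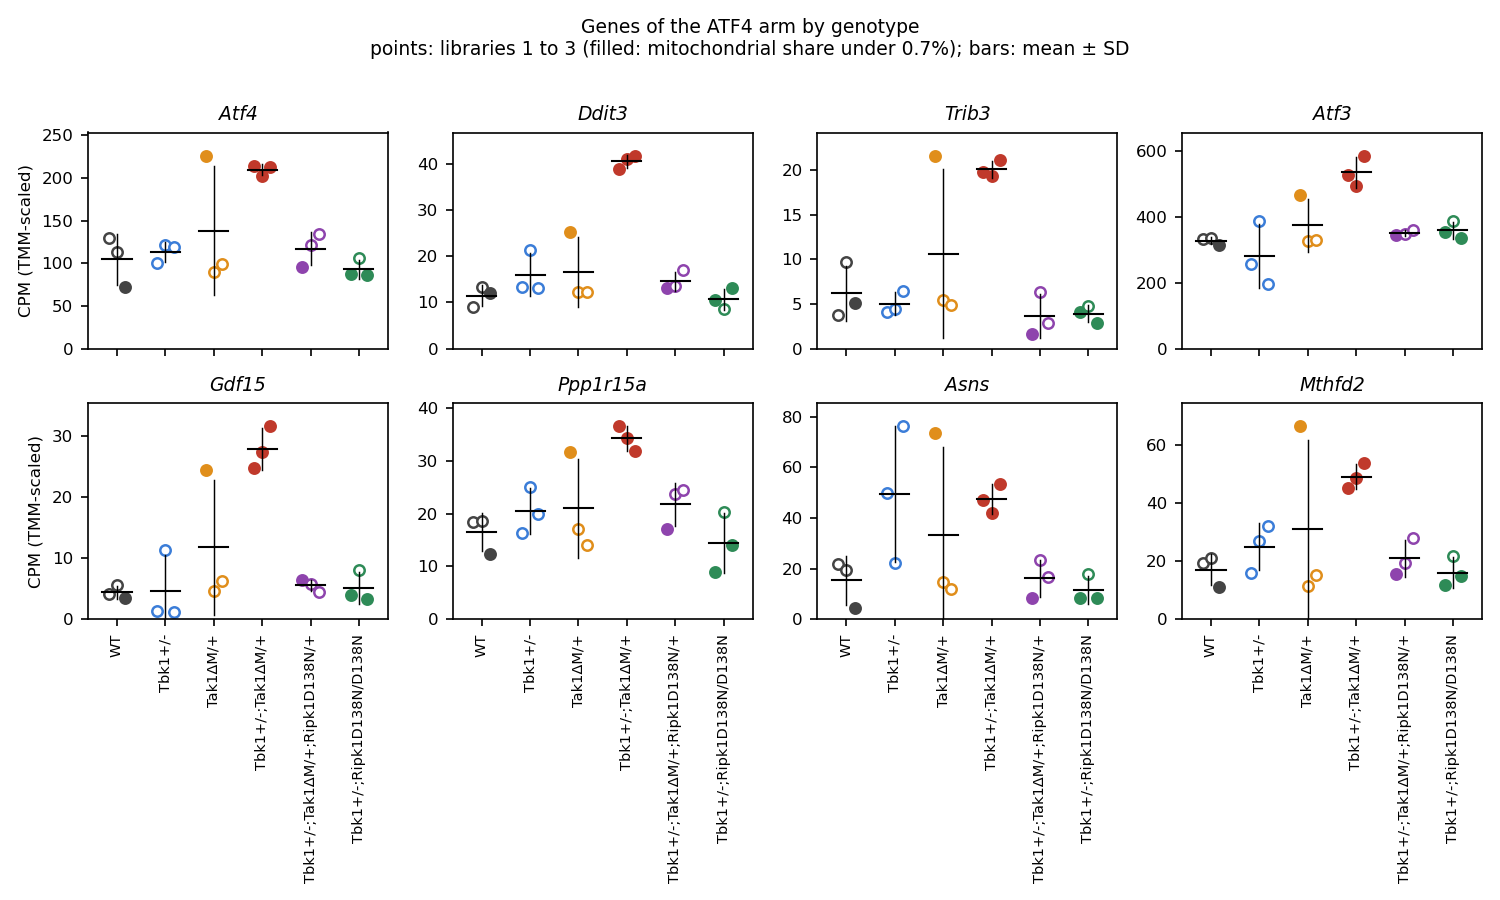
CPM of 8 genes of the ATF4 arm (y axes, each from 0) in the 6 genotypes, 1 point per library, with the mean and ± SD, and filled points for libraries with a mitochondrial share under 0.7%. Ddit3 is at 38.9 to 41.7 CPM in the compound heterozygote and at most 25.2 elsewhere, whereas Asns reaches 76.3 CPM in Tbk1+/-.

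Of the 6 stress effectors, Gdf15 rose. Gdf15 (chr8:70629393-70632456, minus strand), which encodes a secreted cytokine of the stress response, stood at 4.05, 5.60 and 3.48 CPM in WT and at 24.8, 27.4 and 31.6 CPM in the compound heterozygote. It stood at 1.40, 11.4 and 1.19 CPM in Tbk1+/-, 24.5, 4.57 and 6.31 in Tak1ΔM/+, 6.34, 5.78 and 4.48 in those labelled Tbk1+/-;Tak1ΔM/+;Ripk1D138N/+ and 3.93, 8.12 and 3.27 in those labelled Tbk1+/-;Ripk1D138N/D138N. The compound heterozygote and Tak1ΔM/+ replicate 1 stood above the remaining 14 libraries. With a log2 fold change of 2.67 ± 0.71 (SE; adjusted p = 0.0342, edgeR), Gdf15 had the largest value among the 8 called members.

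The other effectors were not called against WT. Ppp1r15a, which encodes GADD34, the subunit that directs a phosphatase to eIF2, was at 12.4 to 18.7 CPM in WT and 31.9 to 36.6 in the compound heterozygote, and just missed the threshold (log2 fold change 1.06, adjusted p = 0.0503, edgeR). Chac1, an enzyme that breaks down glutathione, was at 0, 0.707 and 0.812 CPM in WT and 3.34, 2.93 and 6.17 CPM in the compound heterozygote. Sesn2, an inhibitor of mTORC1, was at 11.1 to 20.0 and 18 to 20.6 CPM. Ddit4, also an inhibitor of mTORC1, was the member of the arm with a fold change below 0 (0.199 to 0.530 CPM, and 0.633 to 1.57 in WT), and Vldlr was at 0 to 2.63 CPM over all libraries. Chac1 and Ppp1r15a thus showed no overlap with WT, while Ddit4 lay on the other side of it at 2 to 10 reads per library.

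Among the 6 genes of amino acid and one-carbon synthesis, several were high in Tbk1+/- libraries as well as in the compound heterozygote. Asns, which makes asparagine, was at 22.0, 19.6 and 4.35 CPM in WT, 49.9, 22.2 and 76.3 in Tbk1+/- and 47.3, 41.9 and 53.5 in the compound heterozygote. Phgdh, the first enzyme of serine synthesis, was at 2.15, 3.18 and 0.812 CPM in WT, 11.7, 3.88 and 22.4 in Tbk1+/- and 5.20, 4.06 and 5.87 in the compound heterozygote. Psat1, the next enzyme of that pathway, was at 32.8, 32.9 and 34.9 CPM in WT, 56.8, 42.9 and 102 in Tbk1+/- and 44.5, 41.8 and 49.1 in the compound heterozygote. For these 3 genes both genotypes lay above WT in every library, which was true of 6.28% of all genes for Tbk1+/-. The order within Tbk1+/- was the same for the 3 genes, with replicate 3 highest and replicate 2 lowest. Mthfd2, of mitochondrial one-carbon metabolism, was highest in the compound heterozygote and in Tak1ΔM/+ replicate 1 (66.4 CPM), at 11.1 to 20.9 CPM in WT, 16 to 32 in Tbk1+/- and 45.0 to 53.6 in the compound heterozygote. Shmt2, which acts beside Mthfd2, was at 25.2 to 36.3 CPM in WT and 43.1 to 46.2 in the compound heterozygote, and Aldh18a1, of proline synthesis, at 7.15 to 13.4 and 9.49 to 16.6. The mean of the 6 genes on log2(CPM + 1) relative to WT was 0.86, 0.61 and 1.62 in Tbk1+/- and 0.86, 0.92 and 1.03 in the compound heterozygote, whereas the mean of the 6 transcription factors and regulators was -0.11, 0.23 and 0.03 in Tbk1+/- and 1.11, 1.05 and 1.09 in the compound heterozygote. None of the 6 amino acid genes was called in either genotype against WT.

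Of the 11 chaperones and folding enzymes, 3 fell in the compound heterozygote. Hsp90b1 (chr10:86690209-86705509, minus strand), which encodes GRP94, the HSP90 of the ER, stood at 399, 444 and 419 CPM in WT and at 230, 219 and 234 CPM in the compound heterozygote. It stood at 525, 407 and 444 CPM in Tbk1+/-, 262, 376 and 386 in Tak1ΔM/+, 307, 438 and 380 in those labelled Tbk1+/-;Tak1ΔM/+;Ripk1D138N/+ and 357, 506 and 361 in those labelled Tbk1+/-;Ripk1D138N/D138N. The compound heterozygote libraries were the lowest 3 of the 18, and Tak1ΔM/+ replicate 1 was next. The log2 fold change was -0.88 ± 0.17 (SE; adjusted p = 0.00567, edgeR). Of its 4032 exon bases, 415 overlap a gene on the other strand, 1810014B01Rik, which averaged 61.1 reads per library beside 6375 for Hsp90b1.

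Dnajb9 (chr12:44205559-44210326, minus strand), which encodes ERdj4, a co-chaperone of BiP and of the degradation of misfolded protein, stood at 81.7, 86.7 and 84.4 CPM in WT and at 47.2, 48.9 and 27.2 CPM in the compound heterozygote. It stood at 126, 113 and 107 CPM in Tbk1+/-, 42.3, 52.6 and 65.5 in Tak1ΔM/+, 49.3, 66.1 and 55.1 in those labelled Tbk1+/-;Tak1ΔM/+;Ripk1D138N/+ and 51.4, 79.2 and 65.8 in those labelled Tbk1+/-;Ripk1D138N/D138N. Every Tbk1+/- library was above WT, and every library of the other 4 genotypes was below it. The log2 fold change of the compound heterozygote was -1.04 ± 0.21 (SE; adjusted p = 0.00818, edgeR).

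Canx (chr11:50293961-50325673, minus strand), the membrane lectin calnexin that holds newly made glycoproteins, stood at 565, 641 and 537 CPM in WT and at 405, 429 and 368 CPM in the compound heterozygote. It stood at 635, 572 and 684 CPM in Tbk1+/-, 454, 473 and 455 in Tak1ΔM/+, 437, 476 and 390 in those labelled Tbk1+/-;Tak1ΔM/+;Ripk1D138N/+ and 440, 511 and 433 in those labelled Tbk1+/-;Ripk1D138N/D138N. Thus the 3 genotypes with an altered Tak1 allele and the libraries labelled Tbk1+/-;Ripk1D138N/D138N all lay below WT. The log2 fold change of the compound heterozygote was -0.54 ± 0.12 (SE; adjusted p = 0.0111, edgeR).

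Hspa5 (chr2:34771970-34777547, plus strand), which encodes BiP, the main HSP70 of the ER and the usual readout of ER stress, was not called. It stood at 546, 606 and 534 CPM in WT and at 385, 390 and 441 CPM in the compound heterozygote (log2 fold change -0.47 ± 0.18 SE, adjusted p = 0.136, edgeR). It stood at 510, 576 and 475 CPM in Tbk1+/-, 347, 532 and 562 in Tak1ΔM/+, 420, 576 and 536 in those labelled Tbk1+/-;Tak1ΔM/+;Ripk1D138N/+ and 490, 711 and 479 in those labelled Tbk1+/-;Ripk1D138N/D138N. Its libraries in the compound heterozygote were below all 3 of WT, and Tak1ΔM/+ replicate 1 was the lowest of the 18. The other 7 folding genes overlapped with WT and were not called: Calr (log2 fold change -0.51), Pdia6 (-0.29), Manf (-0.19), Sdf2l1 (-0.19), Creld2 (-0.14), Dnajc3 (-0.06) and Pdia4 (-0.01). Calr, the soluble partner of calnexin, was at 256 to 407 CPM in WT and 215 to 270 in the compound heterozygote. The 7 chaperones with an ER stress element in their window thus covered both called genes (Hsp90b1 and Canx) and genes with values near 0 (Dnajc3 and Creld2).

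**Figure D4:**
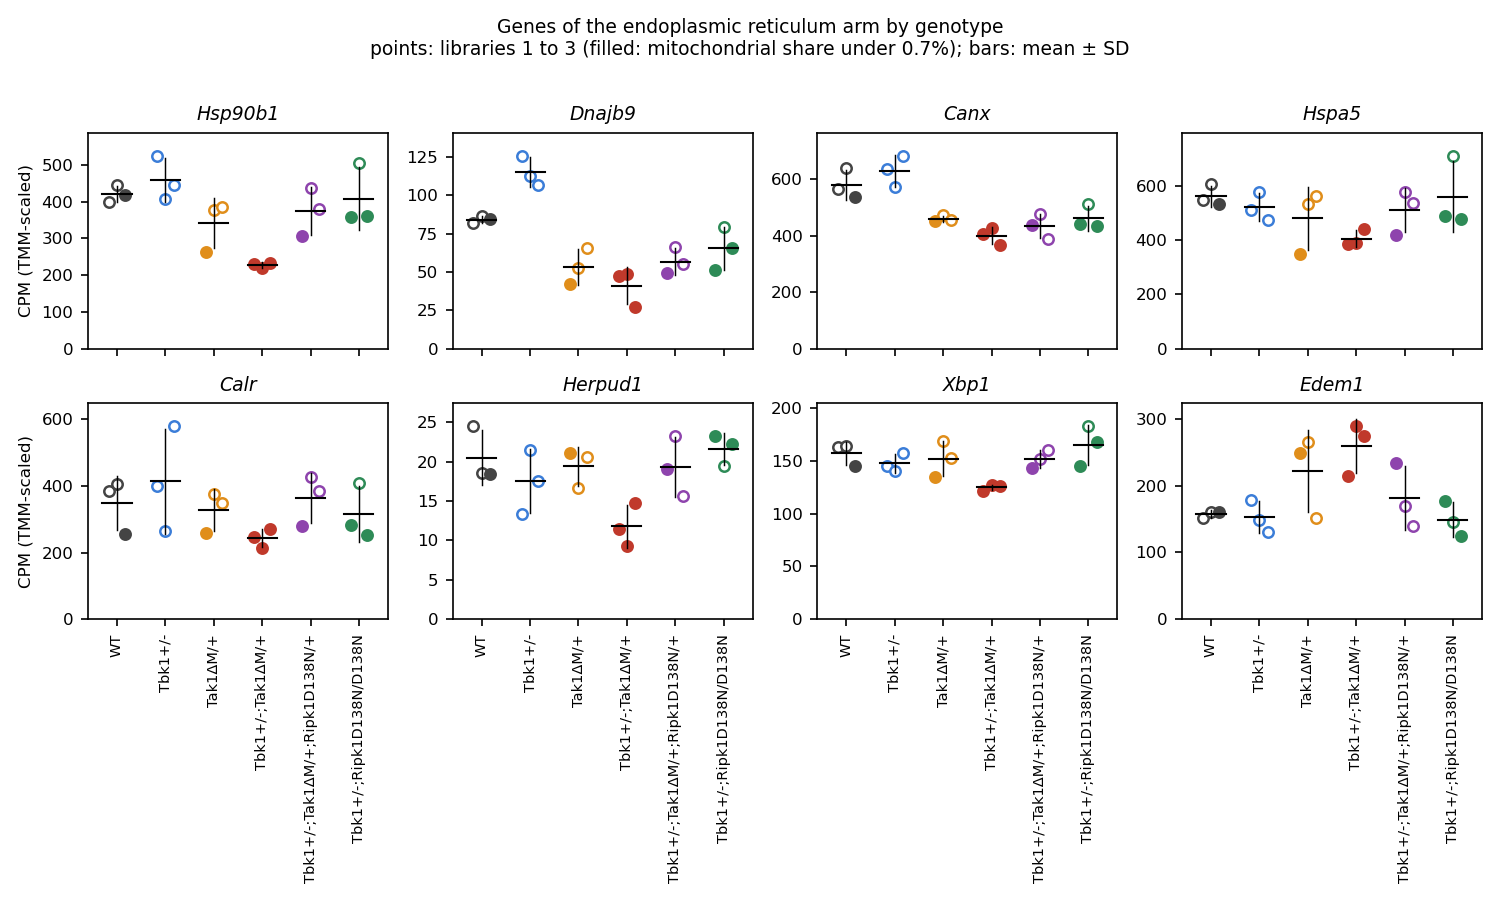
CPM of 8 genes of the ER arm (y axes, each from 0) in the 6 genotypes, 1 point per library, with the mean and ± SD, and filled points for libraries with a mitochondrial share under 0.7%. Hsp90b1 is at 219 to 234 CPM in the compound heterozygote and at 262 CPM or more elsewhere, while Edem1 is at 214 to 289 CPM there and at 151 to 161 CPM in WT.

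The genes of translocation and degradation did not move as 1 group. Herpud1 (chr8:94386438-94395377, plus strand) stood at 24.5, 18.6 and 18.4 CPM in WT and at 11.4, 9.24 and 14.7 CPM in the compound heterozygote, and fell by 0.79 on the log2 scale (SE 0.22, adjusted p = 0.0445, edgeR). It stood at 13.4, 21.5 and 17.6 CPM in Tbk1+/-, 21.1, 16.6 and 20.6 in Tak1ΔM/+, 19.1, 23.3 and 15.7 in those labelled Tbk1+/-;Tak1ΔM/+;Ripk1D138N/+ and 23.3, 19.4 and 22.2 in those labelled Tbk1+/-;Ripk1D138N/D138N. Here Tak1ΔM/+ replicate 1 was not with the compound heterozygote but above 2 of the WT libraries. Edem1 (chr6:108828641-108859356, plus strand), which draws misfolded glycoproteins into degradation, stood at 151, 161 and 160 CPM in WT and at 214, 289 and 275 CPM in the compound heterozygote, which was not called (log2 fold change 0.72, adjusted p = 0.0509, edgeR). It stood at 179, 148 and 131 CPM in Tbk1+/-, 249, 265 and 152 in Tak1ΔM/+, 234, 170 and 140 in those labelled Tbk1+/-;Tak1ΔM/+;Ripk1D138N/+ and 177, 145 and 125 in those labelled Tbk1+/-;Ripk1D138N/D138N. In the compound heterozygote Edem1 thus lay above WT and Herpud1 below it. Sec61b (chr4:47474658-47483242, plus strand), a subunit of the channel through which proteins enter the ER, stood at 70.7, 64.2 and 54.4 CPM in WT, 68.9, 65.5 and 112 in Tbk1+/- and 54.0, 50.6 and 51.4 in the compound heterozygote. It stood at 60.8, 67.4 and 71.4 CPM in Tak1ΔM/+, 51.5, 62.5 and 54.4 in those labelled Tbk1+/-;Tak1ΔM/+;Ripk1D138N/+ and 52.1, 71.1 and 56.2 in those labelled Tbk1+/-;Ripk1D138N/D138N, and it was not called against WT.

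None of the 4 genes of the sensors and XBP1 was called against WT. Eif2ak3, which encodes PERK, stood at 10.1, 5.83 and 7.66 CPM in WT, 9.89, 11.2 and 9.48 in Tbk1+/- and 12.2, 17.2 and 25.5 in the compound heterozygote. It stood at 14.7, 15.9 and 4.94 CPM in Tak1ΔM/+, 12.2, 6.73 and 11 in those labelled Tbk1+/-;Tak1ΔM/+;Ripk1D138N/+ and 10.3, 8.12 and 7.89 in those labelled Tbk1+/-;Ripk1D138N/D138N. The compound heterozygote lay above WT (log2 fold change 1.22 ± 0.37 SE, adjusted p = 0.0609, edgeR). Ern1, which encodes IRE1, stood at 8.61, 13.4 and 12.7 CPM in WT, 10.1, 6.39 and 11.8 in Tbk1+/- and 21.8, 11 and 19.9 in the compound heterozygote. It stood at 13.3, 10.7 and 12.9 CPM in Tak1ΔM/+, 18.6, 7.61 and 14.1 in those labelled Tbk1+/-;Tak1ΔM/+;Ripk1D138N/+ and 11.3, 6.45 and 17.2 in those labelled Tbk1+/-;Ripk1D138N/D138N, and the genotypes overlapped. Atf6, whose protein is cut to a transcription factor under ER stress, stood at 76.9, 75.8 and 81.2 CPM in WT, 58.3, 67.3 and 66.5 in Tbk1+/- and 83.3, 77.8 and 86.1 in the compound heterozygote. It stood at 85.2, 72.0 and 64.6 CPM in Tak1ΔM/+, 70.3, 59.5 and 68.1 in those labelled Tbk1+/-;Tak1ΔM/+;Ripk1D138N/+ and 86.5, 71.2 and 89.0 in those labelled Tbk1+/-;Ripk1D138N/D138N. Tbk1+/- was below WT in every library. Xbp1, the target of IRE1, stood at 163, 164 and 145 CPM in WT, 145, 141 and 158 in Tbk1+/- and 122, 127 and 126 in the compound heterozygote (log2 fold change against WT -0.33 ± 0.11 SE, adjusted p = 0.0926, edgeR). It stood at 135, 169 and 153 CPM in Tak1ΔM/+, 143, 152 and 160 in those labelled Tbk1+/-;Tak1ΔM/+;Ripk1D138N/+ and 145, 183 and 168 in those labelled Tbk1+/-;Ripk1D138N/D138N. The compound heterozygote was therefore the lowest of all, with Tak1ΔM/+ replicate 1 next. The counts are per gene, so spliced Xbp1 could not be separated from unspliced.

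How firmly the calls against WT stood differed between members. Ddit3, Hsp90b1 and Dnajb9 were called with any 1 of the 6 compared libraries left out (largest adjusted p 0.0118, 0.0313 and 0.0462, edgeR). Atf4, Atf3 and Gdf15 were lost with any 1 of those 6 left out (largest adjusted p 0.135, 0.138 and 0.115). Without the 5 libraries labelled Tbk1+/- whose Tbk1 level was near WT, which enter the comparison through the estimate of spread, Ddit3, Hsp90b1, Dnajb9 and Canx were called together with Ppp1r15a, and the other 4 were not. Canx was lost without WT replicate 2 or without compound heterozygote replicate 3 (largest 0.0655), and Herpud1 without any of the 6 but compound heterozygote replicate 3 (largest 0.162).

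The mitochondrial share moved with genotype, since all 3 libraries of the compound heterozygote were low (0.512%, 0.5085% and 0.3674%) and only replicate 3 of WT was (0.671%). With that share as a covariate, 2 members were called against WT, Ddit3 and Hsp90b1, beside 1.61% of all genes in that fit, the median of the ATF4 arm was 0.90 and that of the chaperones 0.04. Among the 8 libraries with a low share, the ATF4 arm averaged -0.21 in WT replicate 3, -0.18 and -0.33 in replicates 1 and 3 labelled Tbk1+/-;Ripk1D138N/D138N and -0.21 in replicate 1 labelled Tbk1+/-;Tak1ΔM/+;Ripk1D138N/+, beside 0.92 to 1.01 in the compound heterozygote and 1.16 in Tak1ΔM/+ replicate 1. The low share therefore occurred with the ATF4 arm high in 4 libraries and below the WT mean in the other 4. The chaperones of the same 4 other libraries averaged -0.23, -0.16, -0.16 and -0.17, between the WT mean and the -0.36 to -0.39 of the compound heterozygote. A fit of those 8 libraries alone, chosen after seeing the data, has 1 WT library, replicate 3. This library was the lowest of WT in the ATF4 arm (-0.21, beside 0.08 and 0.14). It was also the lowest in the chaperones (-0.23, beside 0.05 and 0.18). Against it the medians of the compound heterozygote were 1.47 for the ATF4 arm and -0.11 for the chaperones, so these values depend on 1 library. Astrocyte markers summed to 43.5 to 56.0 CPM in WT and 21.1 to 29.5 CPM in the compound heterozygote, those of the oligodendrocyte lineage to 65.6 to 73.9 and 73.7 to 86.8 CPM, those of neurons to 5.95 to 16.6 and 4.93 to 6.95 CPM, and those of fibroblasts, mural and endothelial cells to 10.7 to 46.3 and 4.62 to 5.77 CPM. Gfap and Aqp4 of the astrocyte list reached at most 3.87 and 0.914 CPM in any library, while Aldh1l1 and Aldoc stood at 8.18 to 35 and 5.92 to 27.1 CPM. Of the oligodendrocyte list, Mog reached at most 0.0517 CPM, while Mbp stood at 44.9 to 82.3 and Olig1 at 0.965 to 15.7 CPM. The part of these markers in the result was not tested. Summed Y-linked genes were at 107.1, 50.18 and 0 CPM in WT and 93.83, 99.54 and 75.91 CPM in the compound heterozygote, and with that sum as a covariate all 8 calls remained.

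Neither allele alone gave a called member. Against WT, Tbk1+/- had 0 of 36 members called by edgeR, DESeq2 and limma-voom, beside 0.0521% of all genes in edgeR, and 7 members at an unadjusted p under 0.05, beside 10.2% of all genes. The median of the ATF4 arm was 0.35 and that of the chaperones 0.19. The chaperone median turned to -0.11 in the fit that takes the mitochondrial share into account. The 3 genes with the largest values were Phgdh (log2 fold change 2.62 ± 0.87 SE), Vldlr (1.78 ± 2.10) and Asns (1.69 ± 0.65), and the first and last of these had adjusted p of 0.331 and 0.388 (edgeR). Without a filter on low counts, Asns, Psat1 and Phgdh were called higher, beside 1.09% of all genes in that fit. Vldlr rested on the 46 reads of 1 Tbk1+/- library.

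In Tak1ΔM/+ against WT, 0 of 36 members were called by edgeR, DESeq2 and limma-voom, beside 0.0149% of all genes in edgeR, and 4 members had an unadjusted p under 0.05, beside 9.47% of all genes. The libraries of this genotype were split. In replicate 1, the ATF4 arm averaged 1.16 and the chaperones -0.34, and in replicates 2 and 3 the ATF4 arm averaged -0.19 and -0.05 and the chaperones -0.07 and -0.02. For 11 of the 18 genes of the ATF4 arm, replicate 1 was above all 14 libraries other than itself and the compound heterozygote, as for 8.63% of all genes, and for 9 of these 11 the 3 libraries of the compound heterozygote were too. The compound heterozygote was above those 14 for 3.15% of all genes, and for 13.5% of the genes in which replicate 1 was. For 5 of the 18 genes of the ER arm it was below those 14, as for 7.91% of all genes: Hspa5, Hsp90b1, Dnajb9, Manf and Xbp1. Without replicate 1, the median of the ATF4 arm in Tak1ΔM/+ against WT was -0.18 in place of 0.43, and still no member was called. Replicate 1 had a mitochondrial share of 0.4533%, beside 1.414% and 1.505% in replicates 2 and 3. Over 8931 genes, its root mean square log2 distance was 0.50 and 0.54 to replicates 2 and 3 of its own genotype and 0.47 to 0.50 to the compound heterozygote. It was 0.475, 0.511 and 0.514 to the libraries labelled Tbk1+/-;Tak1ΔM/+;Ripk1D138N/+ and 0.490, 0.593 and 0.515 to those labelled Tbk1+/-;Ripk1D138N/D138N. The distance was 0.550 to 0.584 to WT and 0.628 to 0.708 to Tbk1+/-. Tbk1 stood at 133 CPM in Tak1ΔM/+ replicate 1, within the WT range.

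Compared with the single heterozygotes, the compound heterozygote had 10 called members against Tbk1+/- and 1 against Tak1ΔM/+. These comparisons share the compound heterozygote libraries with the comparison against WT. Against Tbk1+/-, 10 members were called, beside 14.7% of all genes. Of these, 6 were higher (beside 6.44%): Trib3 (log2 fold change 2.00), Gdf15 (2.58), Ddit3 (1.35), Atf3 (0.94), Atf4 (0.88) and Edem1 (0.76). The 4 that were lower (beside 8.24%) were Dnajb9 (-1.49), Hsp90b1 (-1.01), Sec61b (-0.66) and Canx (-0.65). Their adjusted p ran from 0.000506 (Dnajb9) to 0.0366 (Atf4) in edgeR. Ddit3, Atf3, Hsp90b1, Dnajb9 and Canx were called with any 1 library left out. Atf4 was lost with any 1 of the 6 compared libraries left out (largest adjusted p 0.14). Trib3 was lost without Tbk1+/- replicate 1 or 2 (largest 0.0835), Gdf15 without Tbk1+/- replicate 1 or 3 (0.0903), and Edem1 and Sec61b without Tbk1+/- replicate 3 (0.0921 and 0.145). Each of these 4 was also lost without compound heterozygote replicate 3, Edem1 and Sec61b without replicate 2 and Sec61b without replicate 1. Without Tbk1+/- replicate 2 the value of Gdf15 was 4.4, and without Tbk1+/- replicate 3 that of Sec61b was -0.38. In the fit that takes the mitochondrial share into account, 0 members were called by edgeR, beside 0.364% of all genes in that fit, the median of the ATF4 arm was 0.57 in place of 0.61, and that of the chaperones turned from -0.47 to 0.19. All 3 Tbk1+/- libraries had a high share (1.817% to 2.2%), so that genotype and share cannot be told apart in this comparison. The amino acid genes had a median of -0.27 here, beside 0.93 for the transcription factors and regulators.

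Against Tak1ΔM/+, 1 member was called, Ddit3 (log2 fold change 1.29 ± 0.28 SE, adjusted p = 0.0178, edgeR), beside 2.79% of all genes. The result turned on single libraries. Without Tak1ΔM/+ replicate 1, 6 members were called: Atf4, Ddit3, Trib3, Mthfd2 and Ppp1r15a higher and Hsp90b1 lower, beside 4.03% of all genes in that fit, with a median of 1.2 for the ATF4 arm in place of 0.54. With the summed Y-linked genes as a covariate, that median was -0.09. The chaperones had a median of -0.23, which turned to 0.04 with the mitochondrial share taken into account. The Y-linked sum was 3.022, 0 and 0 CPM in Tak1ΔM/+ and 75.91 to 99.54 CPM in the compound heterozygote, so the groups differed in it without overlap. Without any 1 of the other 5 libraries, Ddit3 was lost (largest adjusted p 0.103) and no member was called. The interaction of both alleles, which asks whether the compound heterozygote departs from the sum of the single effects on the log2 scale, was called for 0 members by edgeR, DESeq2 and limma-voom, beside 1.75% of all genes in edgeR, with 8 members at an unadjusted p under 0.05, beside 16.7% of all genes. Its largest estimates among the transcription factors and regulators were Trib3 (1.21 ± 0.75 SE), Ddit3 (0.81 ± 0.39) and Atf3 (0.74 ± 0.26). The amino acid genes went the other way, with 5 of 6 below 0, a median of -0.64 and a lowest value of -2.56. In the whole ATF4 arm, 11 genes were above 0 and 7 below, with a median of 0.19. All 11 chaperones had an estimate below 0, with a median of -0.36. This median turned to 0.15 in the fit that takes the mitochondrial share into account. Without Tak1ΔM/+ replicate 1, Atf4 and Hsp90b1 were called for the interaction, and without Tbk1+/- replicate 2, Atf3 and Gdf15 (beside 2.93% and 5.04% of all genes in those fits).

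In the libraries labelled Tbk1+/-;Tak1ΔM/+;Ripk1D138N/+, both arms stood near WT, with a mean of 0.07 ± 0.25 for the ATF4 arm and -0.01 ± 0.16 for the chaperones (log2(CPM + 1) relative to WT, SD, n = 3). In the libraries labelled Tbk1+/-;Tak1ΔM/+;Ripk1D138N/+ against the compound heterozygote, 3 members were called, beside 2.45% of all genes (1.84% higher and 0.617% lower): Ddit3 (log2 fold change -1.48 ± 0.28 SE, adjusted p = 0.00901) and Trib3 (-2.49 ± 0.56, adjusted p = 0.022) were lower, and Hsp90b1 (0.72 ± 0.17, adjusted p = 0.0289) was higher, all by edgeR. All 17 genes of the ATF4 arm with reads in both groups had a value below 0. The arm's median was -0.75 as fitted and -0.67 with Vldlr, which had no reads in the 3 libraries labelled Tbk1+/-;Tak1ΔM/+;Ripk1D138N/+, set to a floor of 3 counts per library. All 11 chaperones had a value above 0, with a median of 0.39. In 13 genes of the ATF4 arm, Vldlr among them, these libraries lay below the compound heterozygote without overlap, as in 11.4% of all genes. In 6 chaperones they lay above it, as in 12.8%. Atf4 (-0.84, adjusted p = 0.122), Gdf15 (-2.34, 0.094) and Atf3 (-0.61, 0.0973) showed no overlap and were not called by edgeR with the filter on low counts and all 18 libraries. They were called by DESeq2 and by edgeR without that filter, and Gdf15 also by limma-voom. Canx differed little between these genotypes (0.12 ± 0.11 SE), at 390 to 476 and 368 to 429 CPM.

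These calls have the same compound heterozygote libraries in them as those above. Ddit3 was lost without replicate 2 labelled Tbk1+/-;Tak1ΔM/+;Ripk1D138N/+ (adjusted p = 0.0528, edgeR; 4.04e-06 to 0.0528 over all alternatives). Trib3 was lost without any 1 of the compound heterozygote libraries or replicate 1 or 3 of the other group (largest 0.123), and Hsp90b1 without any 1 of the compound heterozygote libraries or replicate 2 or 3 of the other group (largest 0.191). In the fit of the 8 libraries with a low mitochondrial share Hsp90b1 was not called either (adjusted p = 0.0782). The Tbk1 level differed as well, at 107 to 123 CPM in the libraries labelled Tbk1+/-;Tak1ΔM/+;Ripk1D138N/+ and 55.1 to 66.0 CPM in the compound heterozygote, so the Ripk1 allele and the Tbk1 level cannot be told apart. The mitochondrial share was 0.3703%, 1.095% and 1.051% in the former. The 1 library with a low share, replicate 1, had an ATF4 arm of -0.21 and chaperones of -0.17. With the share as a covariate the same 3 members were called.

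**Figure D5:**
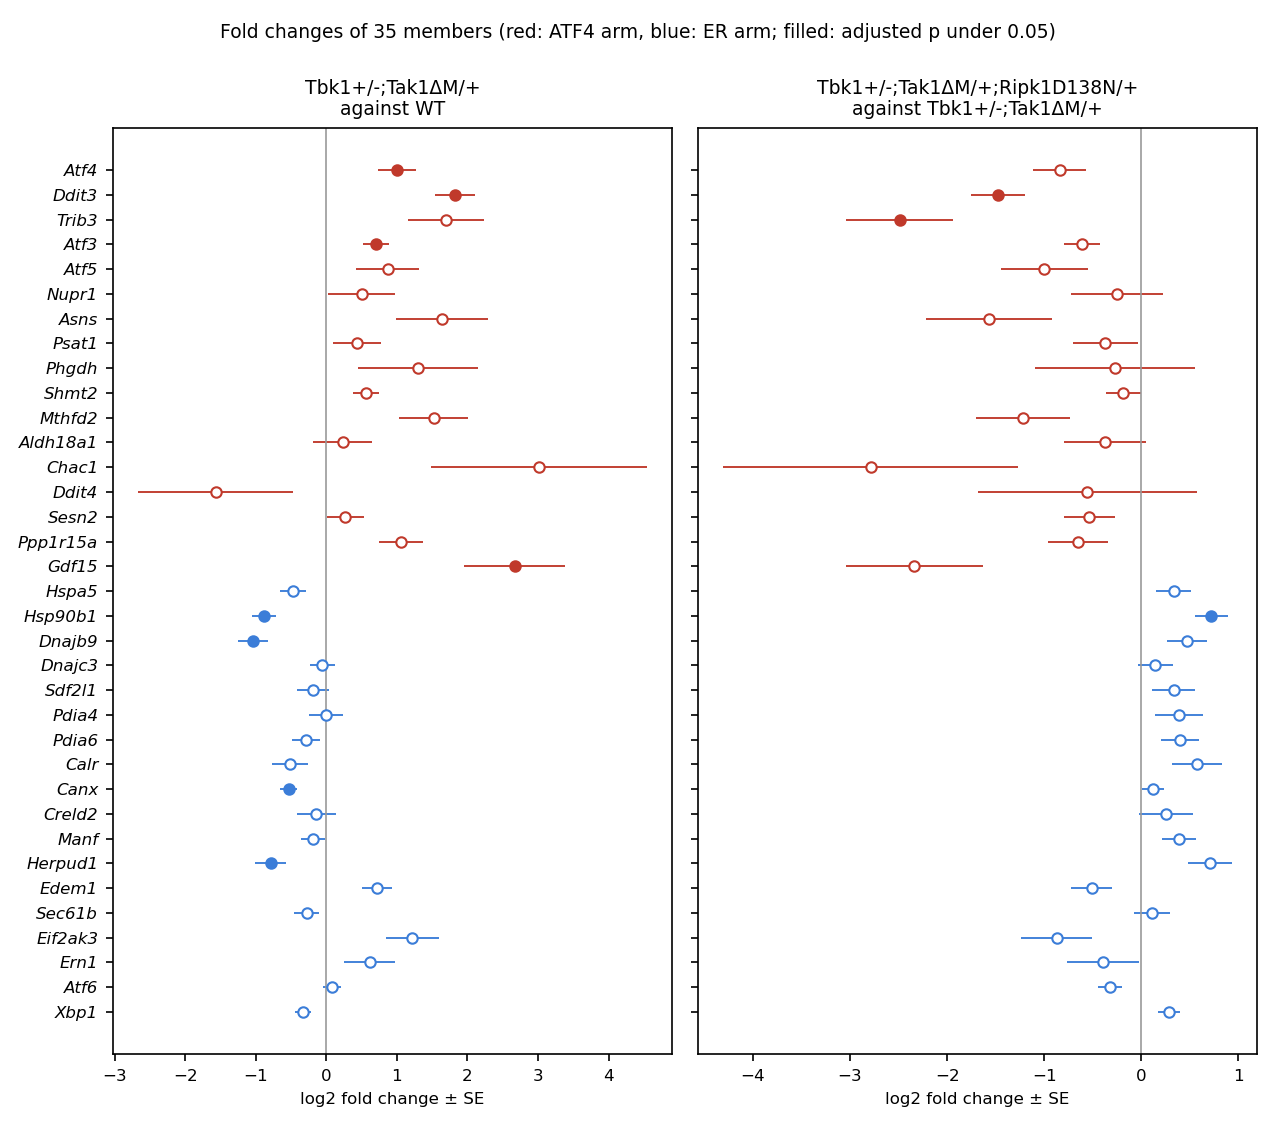
Log2 fold change with its SE (x axis) for all members but Vldlr (rows, by role), with the compound heterozygote against WT on the left and the libraries labelled Tbk1+/-;Tak1ΔM/+;Ripk1D138N/+ against the compound heterozygote on the right. Red marks the ATF4 arm, blue the ER arm and filled points an adjusted p under 0.05, and both panels share the compound heterozygote libraries. Ddit3 is at 1.82 on the left and -1.48 on the right, and Hsp90b1 at -0.88 and 0.72.

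In the libraries labelled Tbk1+/-;Ripk1D138N/D138N against Tbk1+/-, 0 members were called by edgeR and by limma-voom and 3 by DESeq2 (Phgdh, Dnajb9 and Canx, all lower), beside 0.521% of all genes in edgeR and 3.8% in DESeq2, with 7 members at an unadjusted p under 0.05, beside 15.3% of all genes. The 6 amino acid genes had values below 0, with a median of -0.76. Asns was at 8.37, 18 and 8.53 CPM in these libraries and 49.9, 22.2 and 76.3 CPM in Tbk1+/-, without overlap (log2 fold change -2.09 ± 0.66 SE, adjusted p = 0.147, edgeR). Dnajb9 and Canx were also lower without overlap (-0.82 and -0.45, adjusted p = 0.0873 for both, edgeR). Tbk1 was at the WT level in replicates 1 and 3. In replicate 2, whose Tbk1 level was 54.9 CPM, the amino acid genes averaged 0.56 relative to WT, beside -0.22 and -0.44 in replicates 1 and 3. Its chaperones averaged 0.27, beside -0.16 in both others. Without replicates 1 and 3, the median against Tbk1+/- was -0.20 for the ATF4 arm and 0.14 for the chaperones, in place of -0.61 and -0.15, and 0 members were called by edgeR in this fit of 1 library against 3. With all libraries, the median of the ATF4 arm was 0.04 with the summed Y-linked genes as a covariate, and that of the chaperones 0.31 with the mitochondrial share as one. The Y-linked sum was 59.8 to 187.2 CPM in Tbk1+/- and 0, 42.89 and 0 CPM in the libraries labelled Tbk1+/-;Ripk1D138N/D138N. Replicate 2 was also the library of the 3 with a high mitochondrial share (1.565%). Without Tbk1+/- replicate 2, Atf3 was called higher, and Asns and Canx lower, beside 4.3% of all genes in that fit.

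Other genes of these pathways were read from 5 lists, whose members were not among the 36. In the compound heterozygote against WT, 3 of 19 cytosolic aminoacyl-tRNA synthetases, enzymes that load amino acids onto tRNA and include ATF4 targets, rose: Aars (log2 fold change 0.87; 76.3 ± 11.8 CPM in WT and 140 ± 28.7 in the compound heterozygote, SD, n = 3), Cars (0.87; 32.6 ± 6.87 and 59.6 ± 3.92) and Wars (0.60; 45.2 ± 9 and 68.6 ± 5.97). Of the 24 other ATF4 targets and partners, 20 were tested and 2 rose, namely Slc3a2 (0.60), the heavy chain of amino acid transporters, and Lonp1 (1.42), a mitochondrial protease. Of 15 genes of the eIF2 kinases, eIF2, its exchange factor and its phosphatase, Eif2b5 (1.27), a subunit of the exchange factor, rose. Their adjusted p ran from 0.0207 to 0.0461 (edgeR). In these 3 lists no gene fell. Over all genes, 2.16% were called higher and 3.9% lower in this comparison. The medians of the 3 lists were 0.25, 0.18 and -0.05. Of the 20 other ATF4 targets and partners tested, 11 had a value above 0 and 9 below.

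Of 16 other ER folding genes, 3 fell and none rose: Ero1lb (log2 fold change -1.14; 25.0 ± 3.57 CPM in WT and 11.3 ± 2.27 in the compound heterozygote), an oxidase that forms disulfide bonds, Pdia3 (-0.79; 672 ± 9.99 and 389 ± 35.8), which folds glycoproteins together with calnexin, and Selenof (-0.60). Of 32 other genes of degradation, translocation and control, 4 fell and none rose: Ssr3 (-0.71) of the translocon-associated complex, Spcs3 (-0.70) and Sec11c (-0.63) of signal peptidase, and Selk (-0.48). Adjusted p of these 7 genes ran from 0.00217 to 0.0412 (edgeR). These lists had medians of -0.12 and -0.13, and 3.9% of all genes were called lower in the same comparison. Against the compound heterozygote, the libraries labelled Tbk1+/-;Tak1ΔM/+;Ripk1D138N/+ had Aars lower (-0.92, adjusted p = 0.0309, edgeR) and Ero1lb higher (0.81, adjusted p = 0.0252, edgeR). The cystine transporter gene Slc7a11, another ATF4 target, had a higher mean in Tbk1+/- than in WT or the compound heterozygote. It stood at 33.2 ± 21.2 CPM (SD, n = 3) in Tbk1+/-, 5.71 ± 3.51 in WT and 6.64 ± 0.11 in the compound heterozygote. Neither it nor any other gene of its list was called in Tbk1+/- against WT by edgeR. Slc7a11 was called lower in the libraries labelled Tbk1+/-;Ripk1D138N/D138N against Tbk1+/- (-2.75, adjusted p = 0.0483, edgeR).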

How the data were processed

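The deposited table holds raw counts of reads per gene for the 18 libraries. Per the labels' protocols, libraries were made by Smart-seq2, which copies poly(A) RNA and does not mark strand, and sequenced as paired reads. The submitters' processing notes name STAR, featureCounts and mm10, while the labels' protocol names RSEM. The authors did not normalize the counts, which were whole numbers. The strand setting and annotation are not given in the sources used here. Symbols came from GENCODE M21 (GRCm38), and 310 identifiers without one held at most 0.00437% of a library's counts.

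Genes were filtered with filterByExpr by genotype, scaled by TMM and fitted in edgeR 4.0.16 (R 4.3.3) with all 18 libraries in 1 quasi-likelihood model. P-values were adjusted over all 13447 genes by the Benjamini-Hochberg method, with calls at 0.05. CPM values are TMM-scaled. Arm values are means of log2(CPM + 1) and carry no test. DESeq2 1.42.0 and limma-voom 3.58.1 were among the alternatives. The fit was tested on simulated data. Counts come from amplified cDNA without molecular identifiers, so counting floors cover counting error only. No libraries were duplicates.

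The members, the other pathway lists and the tests were chosen with earlier results of these data known. Values in every library are given for each member called in any comparison and for Hspa5, Xbp1, Eif2ak3, Ern1 and Atf6. Of the other pathway lists, up to 4 genes per list called in the compound heterozygote against WT are named. Slc7a11 was named after its values were seen, as were the folding and amino acid genes given by ranges. Protein ends were not analysed here.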

Additional observations from a re-analysis of the deposited data

How the results depend on the processing

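No called member changed direction under any alternative, while medians of the arms did in several comparisons with a covariate, among them those given beside the results. The difference between the arms in the compound heterozygote (1.33) was 1.10 with a pseudocount of 5 CPM, 1.44 over members with a mean of at least 5 CPM, 1.26 as a difference of medians, and 1.30 to 1.35 with 1 library left out. Counts of called members moved more, and are given here in the order all genotypes, compound heterozygote against WT, against Tbk1+/- and against Tak1ΔM/+, Tbk1+/-;Tak1ΔM/+;Ripk1D138N/+ against the compound heterozygote, and Tbk1+/-;Ripk1D138N/D138N against Tbk1+/-, which were 7, 8, 10, 1, 3 and 0. With 1 library left out they ran from 3 to 11, 3 to 11, 5 to 11, 0 to 6, 1 to 6 and 0 to 3, and for the interaction from 0 to 2. The upper ends of the first 5 were reached without Tak1ΔM/+ replicate 1, beside 7.38%, 6.84%, 14.5%, 4.03% and 2.84% of all genes. That of the sixth was reached without Tbk1+/- replicate 2, beside 4.3%.

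The share of all genes called moved as well. It is given for each count that follows, except where a tested genotype had 1 library. Without a filter on low counts the 6 counts were 19, 17, 20, 5, 11 and 4, beside 10.6%, 5.22%, 8.79%, 3.22%, 3.21% and 2.8%. There were 3 for Tbk1+/- against WT, 4 for Tak1ΔM/+ against WT and 6 for the interaction, beside 1.09%, 0.932% and 3.44%. DESeq2 gave 14, 14, 13, 2, 6 and 3, beside 16.9%, 10.8%, 19%, 5.61%, 5.5% and 3.8%. A filter at a mean of 5 CPM gave 14 against WT, beside 11.2%. With the mitochondrial share as a covariate the first 4 counts were 2, 2, 0 and 0, and 22 of 29 calls were lost. With the summed Y-linked genes as a covariate there were 13 over all genotypes, 3 against Tak1ΔM/+ and 1 for the interaction, beside 11.3%, 6.62% and 5.61%. Fits of the compared libraries only gave 16 against WT and 8 for Tbk1+/-;Tak1ΔM/+;Ripk1D138N/+ against the compound heterozygote, beside 11.3% and 4.77%. In 2 fits chosen after seeing the data, the 5 libraries with Tbk1 near WT were left out (4 over all genotypes and 5 against WT) or only the 8 libraries with a low mitochondrial share were used (15 against WT and 8 against the compound heterozygote, where WT and the other group had 1 library each, assumed to vary like the rest). The 5 against WT stood beside 4.63% of all genes. The 4 over all genotypes and the 15 and 8 each involve a genotype with 1 library. No share is given for these 3 counts, and no conclusion is drawn from them. The cause of the shifts between settings was not tested.

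Replicate numbers did not pair the libraries, since correlations of same-numbered libraries ran from -0.194 to 0.141. With the replicate block, 8 members were called over all genotypes and 8 against WT, beside 6.16% and 5.99% of all genes. Against WT, Herpud1 was lost (adjusted p up to 0.191 over its alternatives) and Edem1 gained.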
